A study of Mus musculus with 8 samples.

Results

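The genes described here encode the enzymes that make cholesterol and fatty acids, together with the proteins that control them and a carrier that moves sterol inside the cell. They were taken from a list of 36 genes, of which 35 had at least 1 probe set annotated to that gene alone, among 18193 such genes on the array. Acat2 was not analysed here. Where a gene had several probe sets, the brightest on average was used. The 35 genes were 18 enzymes of sterol synthesis, 6 regulators and sterol transport genes, and 11 enzymes of fatty acid synthesis.

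The study measured RNA of mouse blood monocytes on Affymetrix GeneChip arrays, in 4 groups of 2 arrays that the submitters call biological replicates. All cells came from male C57BL/6 mice that had received fluorescent latex beads of 1 µm into a vein, and were sorted 4 days later by subset and by whether they held beads. The groups were Gr1lo monocytes with beads, Gr1lo monocytes without beads, Gr1hi monocytes with beads and Gr1hi monocytes without beads. Gr1hi monocytes are the classical, inflammatory subset of mouse blood, and Gr1lo monocytes are the nonclassical subset that patrols vessel walls. Clodronate liposomes, used to remove monocytes, are described in conflicting ways. The design text puts them 3 days before the beads for every mouse, while the treatment protocol limits them to the labelling of Gr1hi cells. Under that second account, subset and liposome treatment cannot be told apart. The number of mice behind each array was not given in the sources used here, so the tests measure the spread between these arrays. Bead-free cells came from injected animals and are not untreated cells.

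Without beads, all 6 nonclassical markers (Nr4a1, Treml4, Ace, Spn, Cx3cr1, Itgal) were called higher in Gr1lo cells and all 4 classical markers (Ccr2, Chil3, F13a1, Vcan) lower. The 3 markers of fat or liver cells (Adipoq, Alb, Apoa1), types that make much lipid, and the 3 B cell markers were below background on all 8 arrays. Array medians lay between 6.12 and 6.19 on the log2 scale. The 2 bead-free Gr1lo arrays stood apart from each other: the summed level of 6 macrophage markers was 12.27 to 12.79 in Gr1lo cells with beads but spanned 10.37 to 13.18 in Gr1lo cells without, against 11.86 to 11.90 in Gr1hi cells with beads and 10.52 to 10.66 in Gr1hi cells without. Platelet markers had summed levels of 9.66 to 11.65 in that pair, through Pf4 alone (11.36 in replicate 1 and 7.70 in replicate 2). Ppbp, Itga2b and Gp9 differed little and were slightly lower in replicate 1. The higher macrophage and Pf4 levels were those of replicate 1.

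Cholesterol is built from acetyl-CoA through mevalonate and isoprenoid units to squalene, which is then closed into lanosterol and trimmed to cholesterol. Fatty acids are built from the same acetyl-CoA by carboxylation, chain building, elongation and desaturation. Both branches are controlled by SREBP transcription factors: Srebf2 is known mainly for sterol genes, and the products of Srebf1 for fatty acid genes and, in one isoform, for both. Scap carries the precursors out of the endoplasmic reticulum when sterol is low, and Insig proteins hold them back when it is high. In macrophages, engulfed cargo brings in cholesterol, and sterols activate LXR receptors, which induce cholesterol export and Srebf1.

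The sterol branch differed between the subsets in one direction more than in the other. Averaged over bead state, 13 of 18 sterol enzymes were called between Gr1lo and Gr1hi monocytes (limma, adjusted p under 0.05 over all genes): 10 were higher in Gr1lo cells and 3 were lower. Among regulators and transport genes, 3 of 6 were higher in Gr1lo cells and none was lower. Among fatty acid enzymes, 4 of 11 were higher and 2 were lower. Over all 18193 genes, 35.6% were called in this comparison, 14.8% higher and 20.9% lower, and over the 8788 genes above background 56.2% were called, 2245 of them higher and 2696 lower. The 54.5% of fatty acid enzymes called was close to that share of expressed genes, and the 72.2% of sterol enzymes called was above it. The 50% of regulators and transport genes called was below it. Both enzyme lists hold genes below background, and the fatty acid calls include Fads2, below it on all 8 arrays. With each array centred on its median, the calls over all genes split into 3548 higher and 2635 lower, against 2684 and 3800 on the deposited scale. The arrays hold RNA of whole sorted populations, so fewer cells of a type and less RNA per cell cannot be told apart. Neutrophil markers differed between the same arrays: all 7 were called lower in Gr1lo cells in the average, and their summed level was 9.37 to 9.53 in Gr1lo cells with beads and 9.70 to 10.26 in Gr1lo cells without, against 13.14 to 13.26 in Gr1hi cells with beads and 13.73 to 13.78 in Gr1hi cells without. The poly-A control probe sets, RNA added during preparation, differed too. They averaged 10.44 and 10.45 in Gr1lo cells with beads, against 9.45 and 9.86 in Gr1hi cells with beads. Without beads they averaged 9.27 and 8.68 in Gr1lo cells, against 7.75 and 8.11 in Gr1hi cells. The part of the neutrophil markers and of these controls in the subset differences was not tested.

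**Figure D1:**
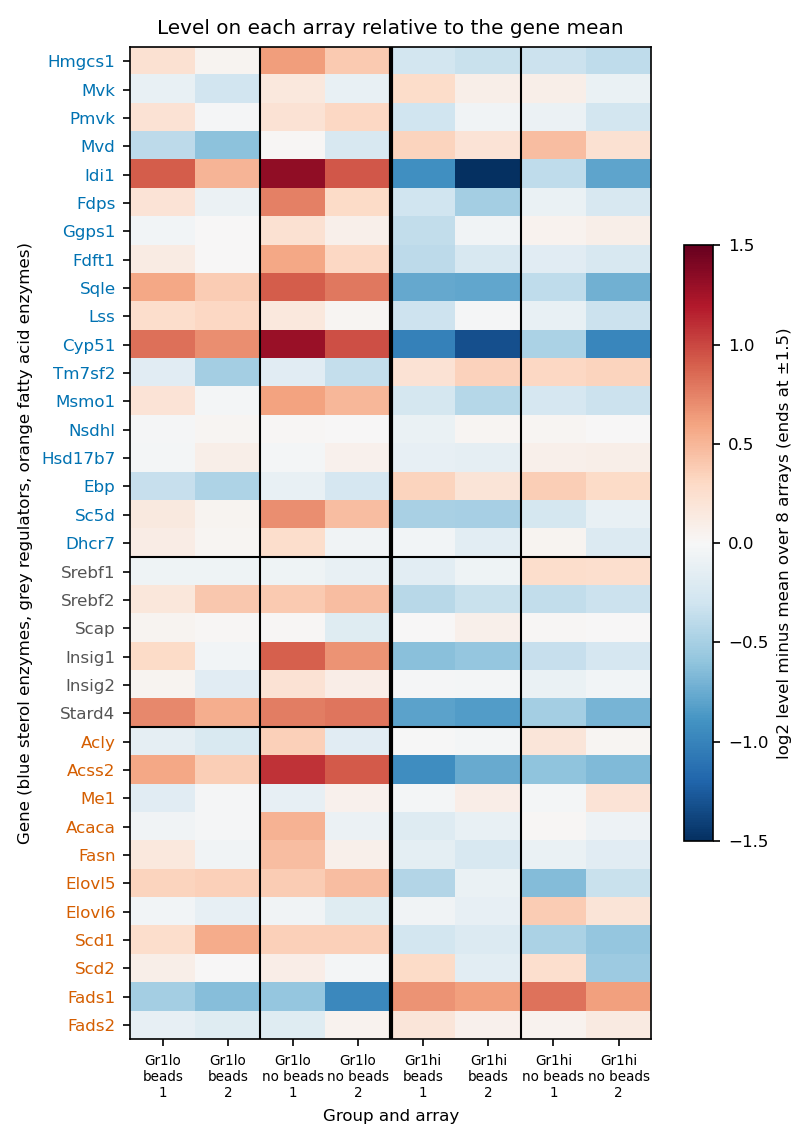
Level of each of the 35 genes on each array, as the log2 value minus that gene's mean over the 8 arrays, with the colour scale ending at 1.5 in either direction. Columns run from Gr1lo with beads and Gr1lo without beads to Gr1hi with beads and Gr1hi without beads, and blue, grey and orange gene names mark sterol enzymes, regulators and fatty acid enzymes. Idi1, Cyp51, Sqle, Stard4 and Acss2 are high on all 4 Gr1lo arrays, and Fads1, Ebp and Mvd are high on all 4 Gr1hi arrays.

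Promoters are shown for some members with repeated differences between the subsets, all of them higher in Gr1lo cells. They are shown because SREBP is known to act together with the factor NF-Y, which binds CCAAT boxes. RefSeq gave at least 1 window for 28 of the 35 genes, from which the 250 bases before the annotated start were read (GRCm38.p6). Each is written 5′ to 3′ on the gene's own strand, and capitals mark CCAAT or its reverse complement ATTGG. In Hmgcs1, capitals also mark TCACCCCAC, a match to the core of the sterol regulatory element. Cyp51 lies at chr5:4104698-4104947 on the minus strand. The others lie on the plus strand, Idi1 at chr13:8885356-8885605, Acss2 at chr2:155517793-155518042, Insig1 at chr5:28071162-28071411 and Hmgcs1 at chr13:119690101-119690350. Hmgcs1 was added after its motif had been seen.
Cyp51: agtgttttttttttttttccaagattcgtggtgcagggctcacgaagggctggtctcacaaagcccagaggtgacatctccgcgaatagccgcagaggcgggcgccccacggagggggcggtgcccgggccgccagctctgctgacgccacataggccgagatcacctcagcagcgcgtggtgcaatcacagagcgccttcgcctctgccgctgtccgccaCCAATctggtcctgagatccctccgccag
Idi1: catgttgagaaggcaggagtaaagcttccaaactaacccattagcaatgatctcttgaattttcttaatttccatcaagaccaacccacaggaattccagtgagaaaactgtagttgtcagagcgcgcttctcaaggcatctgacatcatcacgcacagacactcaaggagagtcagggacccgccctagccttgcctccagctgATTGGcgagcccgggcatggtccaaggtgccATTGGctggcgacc
Acss2: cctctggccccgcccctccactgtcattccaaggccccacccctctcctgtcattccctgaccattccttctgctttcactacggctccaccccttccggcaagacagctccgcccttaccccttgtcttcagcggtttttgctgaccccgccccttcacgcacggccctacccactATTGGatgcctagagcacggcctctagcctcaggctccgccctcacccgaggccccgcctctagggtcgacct
Insig1: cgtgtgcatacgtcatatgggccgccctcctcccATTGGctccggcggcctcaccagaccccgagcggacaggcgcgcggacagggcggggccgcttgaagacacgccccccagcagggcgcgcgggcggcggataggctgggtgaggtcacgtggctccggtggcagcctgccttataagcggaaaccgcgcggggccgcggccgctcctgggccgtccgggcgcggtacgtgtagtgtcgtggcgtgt
Hmgcs1: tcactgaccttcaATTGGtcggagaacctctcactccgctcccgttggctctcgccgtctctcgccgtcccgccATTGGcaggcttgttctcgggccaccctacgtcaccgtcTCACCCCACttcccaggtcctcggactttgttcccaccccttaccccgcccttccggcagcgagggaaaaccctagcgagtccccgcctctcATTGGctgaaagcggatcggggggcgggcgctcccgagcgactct

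Some genes had several windows, and a gene was counted for a motif if any of its windows held it. All 15 sterol enzymes with a window had CCAAT on one strand or the other, as did 4 of 5 regulators and 4 of 8 fatty acid enzymes. That is 82.1% of the 28 members, against 37.5% of all genes with a window and 40.1% of those above background. In Dhcr7 and Pmvk, among others, not every window held it. The box did not go with direction: Mvd, Ebp and Tm7sf2, lower in Gr1lo cells, held it, as did Mvk and Nsdhl, called in neither bead state. The GC box GGGCGG was in 13 of 15 sterol enzymes, 5 of 5 regulators and 4 of 8 fatty acid enzymes, or 78.6% of members, against 35.4% of all genes and 65.1% of genes above background. In Idi1 the CCAAT matches lay 45 to 41 and 14 to 10 bases before the start, and in Cyp51 a single match lay 29 to 25 bases before it. The sterol element core TCACNCCAC, searched on both strands, was in Hmgcs1 alone, 137 to 129 bases before the start, which is 3.57% of members against 1.22% of all genes. The longer form, the letter A followed by TCACCCCAC, contains the core and matched none of the 28 genes and 0.0814% of all genes. The E-box CACGTG was in 6 of 28 genes (21.4%), Insig1 among them, against 6.86% of all genes and 10.5% of genes above background. These are matches of letters in a window and say nothing of binding.

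Of the regulators and transport genes, Srebf2, Insig1 and Stard4 were higher in Gr1lo cells in both bead states. Srebf2, the SREBP gene of the sterol branch, measured 8.92 and 9.16 in Gr1lo cells with beads and 9.15 and 9.22 in Gr1lo cells without, against 8.34 and 8.42 in Gr1hi cells with beads and 8.39 and 8.44 in Gr1hi cells without. Its level was higher on all 4 Gr1lo arrays than on any Gr1hi array. That held for 13.9% of all genes and 24.6% of genes above background, and the reverse for 19.7% and 28.7%. The difference of Srebf2, Gr1lo minus Gr1hi on the log2 scale with its standard error, was 0.66 ± 0.10 with beads and 0.77 ± 0.10 without (limma adjusted p = 0.0015 and 0.000911, 2 arrays a group). Insig1, the SREBP target that holds Scap back, measured 8.45 and 8.12 in Gr1lo cells with beads and 9.06 and 8.83 in Gr1lo cells without, against 7.53 and 7.58 in Gr1hi cells with beads and 7.81 and 7.90 in Gr1hi cells without. The 2 subsets did not overlap, and the difference was 0.73 ± 0.13 with beads and 1.08 ± 0.13 without (adjusted p = 0.00305 and 0.000527, limma).

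Stard4, a carrier that moves cholesterol through the cytosol and is itself an SREBP target, had the largest difference of the 6 genes. It measured 8.62 and 8.45 in Gr1lo cells with beads and 8.67 and 8.70 in Gr1lo cells without, against 7.10 and 7.06 in Gr1hi cells with beads and 7.39 and 7.20 in Gr1hi cells without. Every Gr1lo array was above every Gr1hi array, by 1.46 ± 0.10 with beads and 1.39 ± 0.10 without (adjusted p = 2.55e-05 and 4.16e-05, limma). The calls of Srebf2, Insig1 and Stard4 in both bead states held in all 17 alternatives. Insig1 had only 1 probe set, so the alternatives on probe sets used the same values for it. Leaving out an array of the other bead state changes the spread but not the difference.

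Srebf1, the SREBP gene of fatty acid synthesis, did not follow Srebf2. It measured 9.23 and 9.23 in Gr1lo cells with beads and 9.23 and 9.18 in Gr1lo cells without, against 9.13 and 9.23 in Gr1hi cells with beads and 9.56 and 9.55 in Gr1hi cells without. The bead-free Gr1hi arrays were the high ones, and the other 3 groups lay together. Srebf1 was lower in Gr1lo cells without beads, with a difference of -0.35 ± 0.08 (adjusted p = 0.0137, limma), while with beads the difference was 0.05 ± 0.08 (adjusted p = 0.738). The call was lost without replicate 1 or 2 of bead-free Gr1hi cells (-0.35 and -0.36), without replicate 2 of bead-free Gr1lo cells (-0.33) and with median centring. Scap, the SREBP escort, and Insig2, which acts like Insig1 but is known to be less dependent on SREBP, were called in neither bead state. Insig2 measured 8.30 and 8.09 (Gr1lo with beads) and 8.47 and 8.36 (Gr1lo without), against 8.24 and 8.23 (Gr1hi with beads) and 8.16 and 8.22 (Gr1hi without). The intervals of its differences were -0.27 to 0.17 with beads and 0.00 to 0.44 without.

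The 8 enzymes listed up to squalene include Ggps1, which lies on a side branch. Of these 8, 3 were higher and 1 lower in Gr1lo cells with beads than in Gr1hi cells with beads. That comparison called 26.5% of all genes (11.8% higher, 14.6% lower). Without beads, 5 were higher and 1 lower in Gr1lo cells, and 23.6% of all genes were called (10.0% higher, 13.6% lower). Of genes above background, 44.8% were called with beads and 39.1% without, against 50% and 75% of these 8 enzymes. On the deposited scale, the calls over all genes were 2152 higher and 2665 lower with beads and 1820 higher and 2468 lower without. With median centring they were 2642 and 2145 with beads and 2411 and 1599 without.

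Idi1, the isomerase that makes the reactive isoprenoid unit, measured 8.87 and 8.47 in Gr1lo cells with beads and 9.29 and 8.90 in Gr1lo cells without, against 7.04 and 6.39 in Gr1hi cells with beads and 7.58 and 7.17 in Gr1hi cells without. All 4 Gr1lo arrays were above all 4 Gr1hi arrays, and the lowest value was that of replicate 2 of Gr1hi cells with beads. The difference was 1.95 ± 0.24 with beads and 1.72 ± 0.24 without (adjusted p = 0.000532 and 0.00135, limma), the largest of the 8 in both bead states. Hmgcs1, which makes HMG-CoA at the head of the branch, measured 10.24 and 10.06 in Gr1lo cells with beads and 10.64 and 10.41 in Gr1lo cells without, against 9.74 and 9.68 in Gr1hi cells with beads and 9.69 and 9.63 in Gr1hi cells without. The groups did not overlap between subsets, and the bead-free Gr1lo arrays were the highest. The difference was 0.44 ± 0.11 with beads and 0.86 ± 0.11 without (adjusted p = 0.0151 and 0.000693, limma). The call with beads was lost without replicate 1 or 2 of Gr1hi cells with beads (0.47 and 0.41) or replicate 1 of Gr1lo cells with beads (0.35).

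Fdft1, squalene synthase, commits farnesyl units to sterol. It measured 7.85 and 7.74 in Gr1lo cells with beads and 8.32 and 8.05 in Gr1lo cells without, against 7.34 and 7.50 in Gr1hi cells with beads and 7.57 and 7.50 in Gr1hi cells without. All 4 Gr1lo arrays were above all 4 Gr1hi arrays, by 0.38 ± 0.11 with beads and 0.65 ± 0.11 without (adjusted p = 0.0358 and 0.00346, limma). The call with beads was lost without any 1 of the 4 bead-carrying arrays, with differences of 0.30 to 0.45, and without either bead-free Gr1hi array. With the mean of all its probe sets, Fdft1 had differences of 0.07 with beads and 0.13 without, neither of them called. Fdps, which makes those farnesyl units, measured 8.97 and 8.68 in Gr1lo cells with beads and 9.52 and 9.05 in Gr1lo cells without, against 8.46 and 8.25 in Gr1hi cells with beads and 8.67 and 8.53 in Gr1hi cells without. Replicate 1 of bead-free Gr1lo cells was the highest array. Fdps was higher in Gr1lo cells without beads (0.69 ± 0.17, adjusted p = 0.017), and with beads the difference of 0.47 ± 0.17 did not pass (adjusted p = 0.0716, limma). The call without beads was lost without replicate 1 or 2 of bead-free Gr1hi cells (0.76 and 0.62), and without replicate 1 of bead-free Gr1lo cells the difference was 0.46 and not called. With the mean of all probe sets the difference without beads was 0.26, and it was not called. With beads, Fdps was called in 5 alternatives.

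The 3 enzymes that turn mevalonate into isopentenyl diphosphate did not move together. Pmvk, the second kinase, measured 8.14 and 7.90 (Gr1lo with beads) and 8.14 and 8.23 (Gr1lo without), against 7.62 and 7.87 (Gr1hi with beads) and 7.83 and 7.64 (Gr1hi without). Bead-free Gr1lo cells were above bead-free Gr1hi cells by 0.45 ± 0.12 (adjusted p = 0.0301, limma), a call lost without any 1 of the 4 bead-free arrays (0.36 to 0.54), and with beads the difference was 0.28 ± 0.12 (adjusted p = 0.142). Mvd, the decarboxylase that follows, ran the other way and measured 7.67 and 7.45 in Gr1lo cells with beads and 8.08 and 7.82 in Gr1lo cells without, against 8.40 and 8.27 in Gr1hi cells with beads and 8.53 and 8.30 in Gr1hi cells without. All 4 Gr1lo arrays were below all 4 Gr1hi arrays, and the Gr1lo arrays with beads were the lowest. The difference was -0.78 ± 0.13 with beads and -0.47 ± 0.13 without (adjusted p = 0.0024 and 0.0312, limma). The call without beads was lost without replicate 1 of bead-free Gr1hi cells (-0.35), without replicate 2 of bead-free Gr1lo cells (-0.34), with the compared arrays alone and with median centring. Mvk, the first kinase, and Ggps1, which feeds protein prenylation, were called in neither bead state. The difference of Mvk was -0.39 ± 0.13 with beads (adjusted p = 0.0569, limma), called in 6 alternatives, and 0.03 ± 0.13 without.

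Of the 10 enzymes from squalene to cholesterol, 5 were higher and 2 lower in Gr1lo cells with beads, and 4 were higher and 2 lower without beads. That is 70% called with beads and 60% without, against 44.8% and 39.1% of genes above background. Sqle, the squalene epoxidase and a control point of the later pathway, measured 8.18 and 7.98 in Gr1lo cells with beads and 8.49 and 8.38 in Gr1lo cells without, against 6.82 and 6.81 in Gr1hi cells with beads and 7.21 and 6.87 in Gr1hi cells without. Both Gr1hi arrays with beads were below the background level of 6.98. Sqle was at least 2.14-fold higher in Gr1lo cells with beads (adjusted p = 0.00017, limma) and higher by 1.40 ± 0.13 without (adjusted p = 0.000145). Cyp51, the lanosterol demethylase, was below background on all 4 Gr1hi arrays. It measured 7.98 and 7.86 in Gr1lo cells with beads and 8.46 and 8.12 in Gr1lo cells without, against 6.14 and 5.84 in Gr1hi cells with beads and 6.68 and 6.18 in Gr1hi cells without. Cyp51 was at least 1.92-fold higher in Gr1lo cells with beads and at least 2.48-fold higher without (adjusted p = 0.00013 and 0.000215, limma).

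Sc5d, a late sterol desaturase, measured 7.53 and 7.42 in Gr1lo cells with beads and 8.08 and 7.84 in Gr1lo cells without, against 6.90 and 6.89 in Gr1hi cells with beads and 7.12 and 7.27 in Gr1hi cells without. The subsets did not overlap, and the Gr1hi arrays with beads were below background. Sc5d was at least 1.41-fold higher in Gr1lo cells with beads (adjusted p = 0.00377, limma) and higher by 0.76 ± 0.11 without (adjusted p = 0.00125). Msmo1, which begins the removal of the methyl groups at one carbon of the ring, measured 9.32 and 9.08 in Gr1lo cells with beads and 9.72 and 9.62 in Gr1lo cells without, against 8.85 and 8.69 in Gr1hi cells with beads and 8.86 and 8.80 in Gr1hi cells without. It was higher in Gr1lo cells by 0.43 ± 0.11 with beads and 0.84 ± 0.11 without (adjusted p = 0.0169 and 0.000786, limma), and the bead-free Gr1lo arrays stood highest. The call with beads was lost without replicate 2 of Gr1hi cells with beads (0.35) or replicate 1 of Gr1lo cells with beads (0.31).

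Lss, which closes squalene epoxide into lanosterol, measured 7.66 and 7.70 (Gr1lo with beads) and 7.56 and 7.43 (Gr1lo without), against 7.09 and 7.38 (Gr1hi with beads) and 7.29 and 7.07 (Gr1hi without). It was higher in Gr1lo cells with beads, by 0.45 ± 0.12 (adjusted p = 0.0262, limma), and without beads the difference of 0.31 ± 0.12 did not pass (adjusted p = 0.103), though it did with median centring (0.41) and with the mean of all probe sets (0.47). The call was lost without replicate 1 of Gr1hi cells with beads (0.30) and without replicate 1 or 2 of Gr1lo cells with beads (0.47 and 0.42). Ebp, the sterol isomerase, ran against these genes and measured 9.93 and 9.81 in Gr1lo cells with beads and 10.16 and 10.02 in Gr1lo cells without, against 10.61 and 10.47 in Gr1hi cells with beads and 10.65 and 10.56 in Gr1hi cells without. All 4 Gr1lo arrays were below all 4 Gr1hi arrays, with a difference of -0.67 ± 0.10 with beads and -0.51 ± 0.10 without (adjusted p = 0.0011 and 0.00527, limma).

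Tm7sf2, a sterol reductase, was below background on all 4 Gr1lo arrays. It measured 6.88 and 6.55 in Gr1lo cells with beads and 6.89 and 6.69 in Gr1lo cells without, against 7.27 and 7.40 in Gr1hi cells with beads and 7.37 and 7.39 in Gr1hi cells without. Tm7sf2 was at least 1.28-fold lower in Gr1lo cells with beads and at least 1.32-fold lower without (adjusted p = 0.00646 and 0.00974, limma). The call without beads was lost without replicate 1 or 2 of bead-free Gr1hi cells (measured differences -0.60 and -0.58) or replicate 2 of bead-free Gr1lo cells (-0.49). Nsdhl, which acts with Msmo1, and Dhcr7, the reductase that yields cholesterol, were called in neither bead state, and Hsd17b7 was below background on all 8 arrays.

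**Figure D2:**
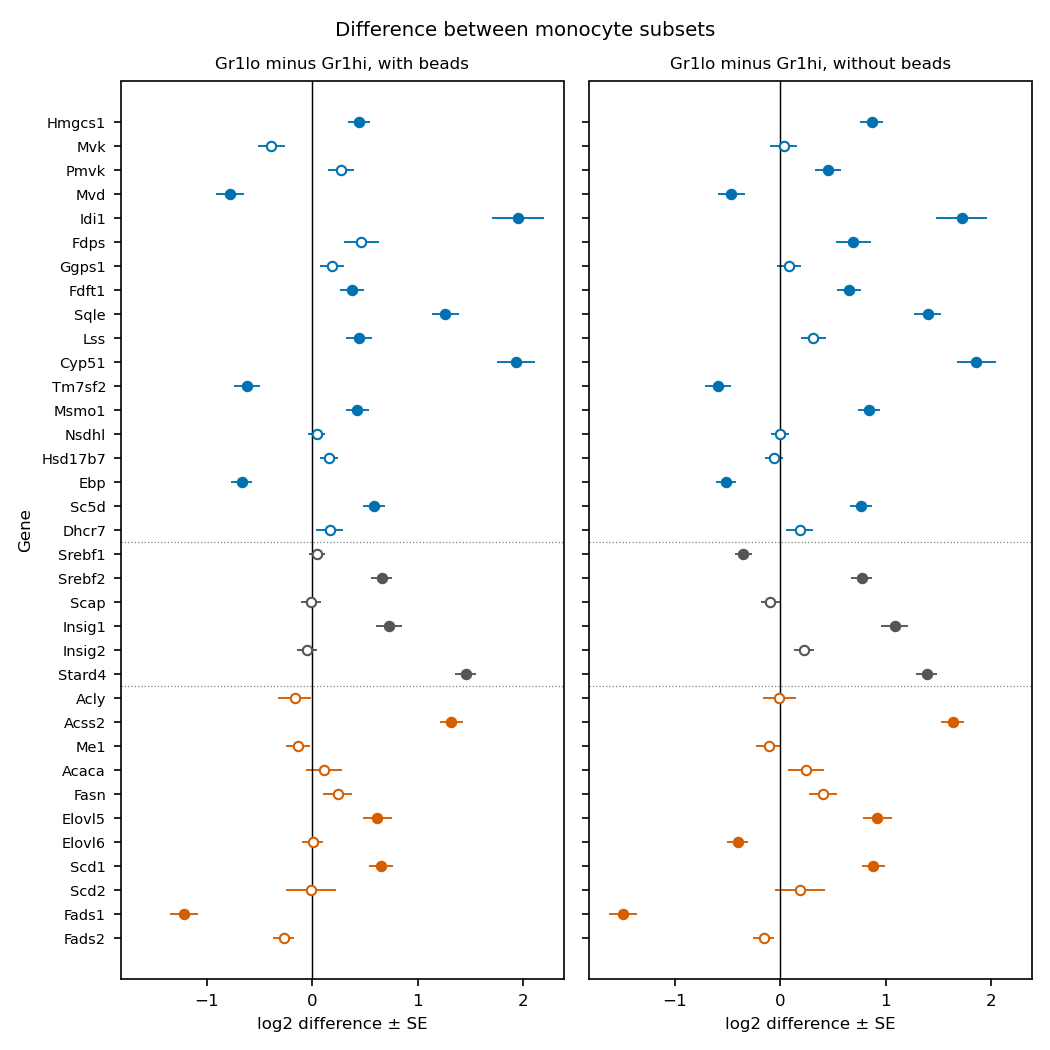
Difference of each of the 35 genes between Gr1lo and Gr1hi monocytes (log2, Gr1lo minus Gr1hi) with its standard error, with beads on the left and without beads on the right, 2 arrays a group. Filled points were called by limma and open points were not, and genes below background in a group stand at their measured difference. Sterol enzymes spread from -0.78 to 1.95 with beads and from -0.59 to 1.86 without, and Idi1, Cyp51, Stard4 and Acss2 lie far to the right in both.

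The enzymes that supply acetyl-CoA and NADPH were led by 1 gene. Acss2, which makes cytosolic acetyl-CoA from acetate and is a known SREBP target, measured 8.69 and 8.49 in Gr1lo cells with beads and 9.20 and 9.03 in Gr1lo cells without, against 7.18 and 7.37 in Gr1hi cells with beads and 7.51 and 7.46 in Gr1hi cells without. All 4 Gr1lo arrays were above all 4 Gr1hi arrays. The difference was 1.32 ± 0.11 with beads and 1.63 ± 0.11 without (adjusted p = 6.59e-05 and 3.05e-05, limma), and both calls held in all 17 alternatives. Acly, which makes acetyl-CoA from citrate, measured 11.17 and 11.08 (Gr1lo with beads) and 11.67 and 11.14 (Gr1lo without), against 11.30 and 11.27 (Gr1hi with beads) and 11.49 and 11.33 (Gr1hi without). The subsets overlapped and it was called in neither state, with differences of -0.16 ± 0.16 with beads and -0.01 ± 0.16 without. Me1, a source of NADPH, was below background on all 8 arrays.

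Among the 4 chain-building enzymes, Elovl5, an elongase of polyunsaturated fatty acids, measured 12.55 and 12.58 in Gr1lo cells with beads and 12.60 and 12.68 in Gr1lo cells without, against 11.78 and 12.12 in Gr1hi cells with beads and 11.56 and 11.88 in Gr1hi cells without. It was higher in Gr1lo cells, by 0.62 ± 0.14 with beads and 0.92 ± 0.14 without (adjusted p = 0.0106 and 0.00185, limma), and its arrays did not overlap between subsets. The call with beads was lost without replicate 1 of Gr1hi cells with beads (0.45) or replicate 2 of Gr1lo cells with beads (0.60). Elovl6, an elongase of saturated chains and a target of Srebf1, measured 7.43 and 7.35 in Gr1lo cells with beads and 7.42 and 7.29 in Gr1lo cells without, against 7.41 and 7.35 in Gr1hi cells with beads and 7.85 and 7.66 in Gr1hi cells without. As with Srebf1, the bead-free Gr1hi arrays were the high ones. Elovl6 was lower in Gr1lo cells without beads, with a difference of -0.41 ± 0.10 (adjusted p = 0.017, limma), and the difference with beads was 0.01 ± 0.10. That call was lost without replicate 1 of bead-free Gr1hi cells (-0.31), without replicate 2 of bead-free Gr1lo cells (-0.34), with median centring and with the mean of all probe sets. The average over bead state was not called, but was without replicate 2 of bead-free Gr1hi cells (-0.25) and without replicate 1 of bead-free Gr1lo cells (-0.23).

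Fasn, the fatty acid synthase itself, measured 8.57 and 8.37 in Gr1lo cells with beads and 8.88 and 8.50 in Gr1lo cells without, against 8.28 and 8.18 in Gr1hi cells with beads and 8.32 and 8.24 in Gr1hi cells without. It was called higher in Gr1lo cells only in the average over bead state (0.32 ± 0.09, adjusted p = 0.0271, limma), with 0.24 ± 0.13 with beads (adjusted p = 0.24) and 0.41 ± 0.13 without (adjusted p = 0.0603). The averaged call was lost without any 1 of the 4 Gr1hi arrays, without replicate 1 of Gr1lo cells with beads and without replicate 1 of bead-free Gr1lo cells, with differences of 0.23 to 0.35. Without beads, Fasn was called in 6 alternatives, and without replicate 2 of bead-free Gr1lo cells its difference was 0.60. Acaca, which makes malonyl-CoA for Fasn, measured 8.41 and 8.44 (Gr1lo with beads) and 8.98 and 8.37 (Gr1lo without), against 8.27 and 8.35 (Gr1hi with beads) and 8.48 and 8.38 (Gr1hi without). Its difference of 0.24 ± 0.17 without beads did not pass (adjusted p = 0.356). Replicate 2 of bead-free Gr1lo cells was the low one of its pair, and without it the difference was 0.55 and was called, as was the average over bead state (0.33).

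Of the 4 desaturases, Scd1 was called higher and Fads1 lower in Gr1lo cells in both bead states. Scd1, which makes monounsaturated fatty acids, measured 6.90 and 7.20 in Gr1lo cells with beads and 6.99 and 6.99 in Gr1lo cells without, against 6.36 and 6.43 in Gr1hi cells with beads and 6.16 and 6.06 in Gr1hi cells without. It was below background on all 4 Gr1hi arrays and was at least 1.05-fold higher in Gr1lo cells with beads and at least 1.01-fold higher without (adjusted p = 0.00252 and 0.000719, limma). One Gr1lo array with beads was itself below the background level of 6.98, and the other 3 lay close to it. Fads1, a desaturase of polyunsaturated fatty acids, measured 6.57 and 6.44 in Gr1lo cells with beads and 6.49 and 6.11 in Gr1lo cells without, against 7.75 and 7.69 in Gr1hi cells with beads and 7.89 and 7.69 in Gr1hi cells without. It was below background on all 4 Gr1lo arrays, where it was at least 1.67-fold lower with beads and at least 1.76-fold lower without (adjusted p = 0.000279 and 0.00014, limma). Fads2, the desaturase that acts before Fads1, measured 5.91 and 5.85 (Gr1lo with beads) and 5.85 and 6.08 (Gr1lo without), against 6.21 and 6.09 (Gr1hi with beads) and 6.09 and 6.16 (Gr1hi without). It was below background on all 8 arrays, so its averaged call (-0.21 ± 0.07, adjusted p = 0.0472, limma) is not a measured level, and it was lost in 12 of 16 alternatives. Scd2 was called in neither state, with differences of -0.01 ± 0.24 with beads and 0.18 ± 0.24 without.

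Counted over single genes, 13 of the 35 were higher in Gr1lo cells in both bead states and 4 were lower in both (Mvd, Ebp, Tm7sf2 and Fads1), together 48.6%. Over all genes 18.5% were called in 1 direction in both states, 8.39% higher and 10.1% lower, and over genes above background 33.6%, 15.7% higher and 17.9% lower. For 11 of these 17, both calls held in every alternative in which the gene was tested: Idi1, Sqle, Cyp51, Sc5d and Ebp of the sterol branch, Insig1, Srebf2 and Stard4, and Acss2, Scd1 and Fads1 of the fatty acid branch. These checks did not cover every probe set of a gene. Another probe set of Idi1, Srebf2, Stard4 and Acss2 was called in the same direction in both bead states. Without beads, some dimmer probe sets of Cyp51, Sc5d, Acss2, Scd1 and Fads1, below background on all 8 arrays, were not called. The arrays of every called pair did not overlap, a common outcome with 2 arrays a group. With beads, 26.8% of all genes had every Gr1lo array higher and 34.6% every one lower, and without beads 21.5% and 40.5%. Of genes above background, the shares were 36.1% and 41.8% with beads and 33.1% and 40.8% without. Of 11 genes with more than 1 probe set above background, 9 had the same direction in all of them in the averaged comparison, and Insig2 and Acly did not.

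The medians of the branches were set side by side. The median difference of sterol enzymes was 0.33 with beads and 0.38 without, that of regulators and transport genes 0.35 and 0.50, and that of fatty acid enzymes 0.01 and 0.18. With the mean of all probe sets of each gene, the sterol median was 0.15 and the fatty acid median 0.17 with beads, so the order of the branches with beads did not hold, and without beads they were 0.24 and 0.20. Over all genes the medians were -0.03 with beads and -0.07 without. The fatty acid median without beads was -0.02 without replicate 1 of bead-free Gr1lo cells, the array with the higher macrophage markers and Pf4. It was 0.01 without replicate 2 of bead-free Gr1hi cells. Within single arrays, the median of the sterol enzymes relative to each gene's own mean was 0.13 and 0.02 in Gr1lo cells with beads and 0.24 and 0.18 in Gr1lo cells without, against -0.29 and -0.15 in Gr1hi cells with beads and -0.10 and -0.22 in Gr1hi cells without. All 4 Gr1lo arrays were thus above all 4 Gr1hi arrays. The fatty acid enzymes gave -0.04 and -0.02 in Gr1lo cells with beads and 0.36 and 0.05 in Gr1lo cells without, against -0.06 and -0.11 in Gr1hi cells with beads and 0.02 and -0.08 in Gr1hi cells without, and there the subsets overlapped. The difference between the branches was not tested.

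**Figure D3:**
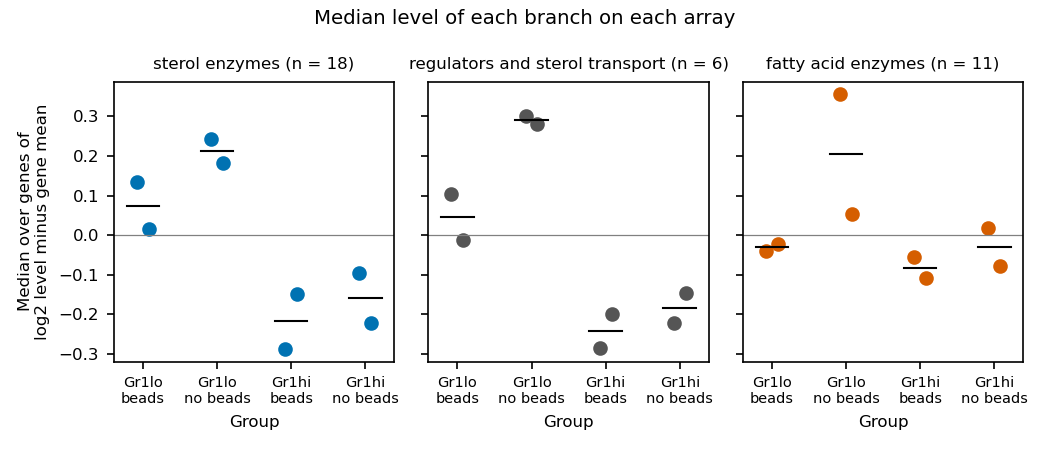
Median over the genes of each list of the log2 level minus each gene's mean over 8 arrays, for 18 sterol enzymes, 6 regulators and transport genes and 11 fatty acid enzymes. Dots are arrays and bars are means of the 2 arrays of a group. The sterol and regulator medians of the Gr1lo arrays all lie above those of the Gr1hi arrays, and the fatty acid medians overlap.

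Bead-carrying cells were then set against bead-free cells of the same subset, which asks what the carrying of beads goes with. None of the 35 genes passed the limma test in Gr1lo cells, in Gr1hi cells, in the average of both or in the difference between them. At an unadjusted p under 0.05, 11 genes were lower and none higher in Gr1lo cells with beads, 8 were lower and 1 higher in Gr1hi cells with beads, 14 were lower in the average, and 5 differed in the bead effect between subsets. At that unadjusted level, 2402 of all 18193 genes passed in Gr1lo cells, 1806 in Gr1hi cells, 2785 in the average and 1427 for the difference. Of the 8788 genes above background, 1043 were lower and 341 higher in Gr1lo cells, and 745 lower and 357 higher in Gr1hi cells. In the average, 1307 of them were lower and 453 higher. After adjustment, the test called 0.225% of all genes in Gr1lo cells, 0.247% in Gr1hi cells, 0.764% in the average and 0.0440% for the difference. In Gr1lo cells, other settings called Insig1 with trend and robust moderation, and Insig1 (-0.77), Sc5d (-0.60) and Acaca (-0.55) without replicate 2 of bead-free Gr1lo cells (adjusted p = 0.0404, 0.0402 and 0.0435, limma). In the average, Insig1 (-0.48) and Sc5d (-0.39) were called with genes above background only and with trend and robust moderation, which also called Acss2 (-0.37), and the replicate block called Idi1 (-0.54). Without replicate 2 of bead-free Gr1lo cells, the average called Insig1 (-0.54), Sc5d (-0.45) and Acaca (-0.34).

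In Gr1lo cells, 16 of 18 sterol enzymes had a negative difference, beads minus no beads, with a median of -0.29. They included all 8 enzymes listed up to squalene, the side branch Ggps1 among them. For 11 of 18, both arrays with beads were below both without, against 19.4% of all genes and 31.1% of genes above background. Of all genes, 44.3% had a negative difference, and of those above background 58.6%. The fatty acid enzymes had 7 of 11 negative differences with a median of -0.08, and 2 of 11 had every array with beads lower. The count of negative sterol differences stayed between 15 and 17 of 18 over the alternatives, a count added after the data had been seen.

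Insig1 had the smallest p of the 35 in this comparison, and measured 8.45 and 8.12 in Gr1lo cells with beads, against 9.06 and 8.83 in Gr1lo cells without. The groups did not overlap, and the difference was -0.66 ± 0.13 (adjusted p = 0.116, limma). Acss2 had 8.69 and 8.49 in Gr1lo cells with beads, against 9.20 and 9.03 in Gr1lo cells without, a difference of -0.53 ± 0.11 (adjusted p = 0.135). Sc5d differed by -0.48 ± 0.11 and Msmo1 by -0.47 ± 0.11 (adjusted p = 0.143 and 0.153, limma), again with no overlap. Hmgcs1, Mvd, Idi1, Fdps, Fdft1, Sqle and Cyp51 had differences between -0.46 and -0.36, none of which passed. Lss and Hsd17b7 were the sterol enzymes without a negative difference. Lss was at 0.19 ± 0.12, with both arrays with beads above both without, and Hsd17b7, below background throughout, at 0.006. The values of Gr1lo cells without beads enter this comparison and the subset comparison without beads, so the same arrays lie behind both.

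Other genes moved between the same arrays. The classical marker F13a1 measured 7.46 and 7.24 in Gr1lo cells with beads, against 10.61 and 10.17 in Gr1lo cells without, and 3 of 4 classical and 3 of 5 dendritic markers were called lower with beads. The summed level of the 4 classical markers was 12.34 to 12.48 in Gr1lo cells with beads and 13.73 to 13.82 in Gr1lo cells without. The summed level of the 5 dendritic markers was 9.25 to 9.31 with beads and 10.74 to 11.03 without, and the dendritic marker Cd209a measured 6.84 and 6.69 with beads, against 10.07 and 9.73 without. The NK cell marker Klrd1 measured 5.26 and 5.28 in Gr1lo cells with beads, against 7.55 and 7.80 without, and 1 of 3 NK cell markers was called lower. Of 7 neutrophil markers, 2 were called lower with beads, Mmp8 (at least 2.09-fold) and Cd177 (at least 1.78-fold). The list did not fall as a whole: 4 of the 7 had a positive difference, none of them called, and the median was 0.03. Among these 4, S100a8 measured 7.74 and 8.19 with beads, against 8.04 and 7.17 without, and Ltf, Camp and Ngp were below background in both Gr1lo groups. The summed level of the neutrophil markers was 9.37 to 9.53 in Gr1lo cells with beads and 9.70 to 10.26 in Gr1lo cells without, and that of the NK cell markers 8.01 to 8.06 with beads and 8.73 without. The poly-A control probe sets, RNA added during preparation, averaged 10.44 and 10.45 in Gr1lo cells with beads, against 9.27 and 8.68 without, and 9.45 and 9.86 in Gr1hi cells with beads, against 7.75 and 8.11 without. The part of these in the bead differences was not tested.

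In Gr1hi cells, 14 of 18 sterol enzymes had a negative difference with a median of -0.07, and for 8 of 18 both arrays with beads were below both without, against 25.0% of all genes and 31.1% of those above background. The fatty acid enzymes had 7 of 11 negative differences with a median of -0.05. Of all genes 54.5% were negative, and of those above background 61.0%. Srebf1 had the smallest p, and measured 9.13 and 9.23 in Gr1hi cells with beads, against 9.56 and 9.55 in Gr1hi cells without. The groups did not overlap, and the difference was -0.37 ± 0.08 (adjusted p = 0.156, limma). Elovl6 followed with 7.41 and 7.35 in Gr1hi cells with beads, against 7.85 and 7.66 in Gr1hi cells without, a difference of -0.38 ± 0.10 (adjusted p = 0.254). Idi1 differed by -0.66 ± 0.24 (adjusted p = 0.423), and Scd1, below background in both Gr1hi groups, had no measured fold. The bead-free Gr1hi arrays also enter the subset comparison without beads, in which Srebf1 and Elovl6 were called. Other markers moved between the same Gr1hi arrays: the nonclassical marker Treml4 was called higher with beads (0.67 ± 0.09, adjusted p = 0.0347, limma) and the neutrophil marker Mmp9 lower (-0.91 ± 0.11, adjusted p = 0.028). All 7 neutrophil markers had a negative difference, with a summed level of 13.14 to 13.26 with beads and 13.73 to 13.78 without. C1qa measured 8.66 and 8.65 in Gr1hi cells with beads, against 7.24 and 7.36 in Gr1hi cells without, a difference of 1.36 ± 0.79 that was not called, and the summed level of the 6 macrophage markers was 11.86 to 11.90 with beads and 10.52 to 10.66 without. The part of these markers in the Gr1hi differences was not tested.

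Whether the bead difference itself varied with subset was tested by the interaction, Gr1lo minus Gr1hi. Srebf1 had the smallest p, with 0.40 ± 0.11: its difference was 0.02 ± 0.08 in Gr1lo cells and -0.37 ± 0.08 in Gr1hi cells (adjusted p of the interaction = 0.548, limma). Elovl6 gave 0.41 ± 0.14 (adjusted p = 0.583), and Hmgcs1 and Msmo1 gave -0.42 ± 0.15 and -0.41 ± 0.15 (adjusted p = 0.597 and 0.601, limma). The interval for Hmgcs1 was -0.77 to -0.08.

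**Figure D4:**
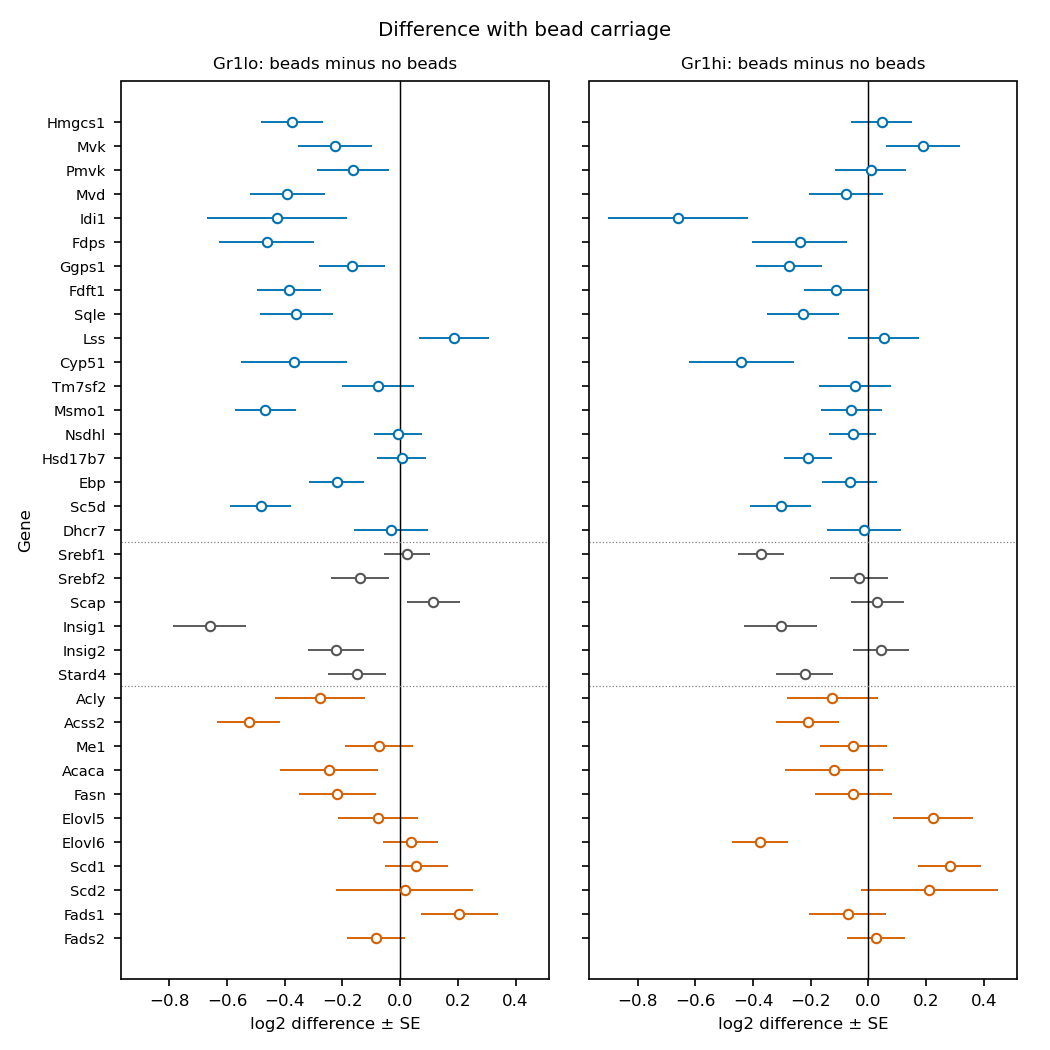
Difference of each of the 35 genes between cells with and without beads (log2, beads minus no beads) with its standard error, in Gr1lo cells on the left and in Gr1hi cells on the right, 2 arrays a group. All points are open because limma called none. Most sterol enzymes lie left of 0 in Gr1lo cells, with a median of -0.29, and nearer to 0 in Gr1hi cells, with a median of -0.07.

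A further 40 genes of the same pathways were counted in the same fits. Averaged over bead state, 12 were higher and 11 lower in Gr1lo cells, and the 57.5% called was close to the 56.2% of genes above background. Among 10 genes of SREBP control, 6 were higher and none was lower, 60% against the same 56.2%: Mbtps2, the protease that frees SREBP (0.39), the membrane proteins Erlin1 (0.28) and Erlin2 (0.39), the ubiquitin ligase Rnf139 (0.18), and the NF-Y subunits Nfyb (0.49) and Nfyc (0.26). The call of Rnf139 was lost without any 1 of 7 of the 8 arrays (0.17 to 0.19), all but replicate 1 of Gr1lo cells with beads. Mbtps1, the other SREBP protease, was called lower with genes above background only (-0.16) and with the mean of all probe sets (-0.47). Among 5 other sterol and isoprenoid genes, Coq2 of ubiquinone synthesis was higher (0.74), while Nus1 of dolichol synthesis (-0.52), Aacs, which activates acetoacetate (-0.18), and Fntb, a prenyltransferase subunit below background, were lower. The call of Aacs was lost in 10 alternatives and that of Fntb in 6, replicate 1 of bead-free Gr1lo cells left out among them for both. Among 20 other fatty acid genes, 3 acyl-CoA synthetases were higher, Acsl4 (0.70), Acsl5 (0.35) and Acsl3, which was below background. The hydroxyacyl-CoA dehydratases of chain elongation, Hacd2 (-0.23), Hacd3 (-0.86), Hacd4 (-1.32) and Hacd1 (at least 1.62-fold), were lower, as were Oxsm (-0.29) and Mecr (at least 1.39-fold) of mitochondrial fatty acid synthesis. The call of Hacd2 was lost in 7 alternatives (-0.24 to -0.15), among them without replicate 2 of bead-free Gr1lo cells, and that of Oxsm in 6, among them without replicate 1 of bead-free Gr1lo cells (-0.23) and with the mean of all probe sets (-0.08).

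With beads, calls among these 40 genes fell on the LXR genes that link sterol load to export. Nr1h3, which encodes an LXR receptor, was at least 1.67-fold higher in Gr1hi cells with beads than in Gr1hi cells without (adjusted p = 0.0486, limma), a call lost in 9 alternatives, those without any 1 of the 4 Gr1hi arrays among them. Abca1, a cholesterol exporter, was higher by 0.89 ± 0.12 (adjusted p = 0.0347, limma), a call lost with the mean of all probe sets and without any 1 of the 4 Gr1hi arrays. In Gr1lo cells their differences of 0.59 ± 0.15 and 0.26 ± 0.12 were not called, and Abcg1, another exporter, was called higher in the average alone (0.37 ± 0.06, adjusted p = 0.0316, limma). That call was lost with the mean of all probe sets and without any 1 of 7 of the 8 arrays, all but replicate 2 of bead-free Gr1lo cells (0.35 to 0.38). Between subsets, Nr1h3 (1.14) and Mylip (0.71), an LXR-induced ubiquitin ligase, were higher in Gr1lo cells, and Rxra (-0.72) and Abcg1 (-0.19) were lower, Abcg1 with a call lost in 10 alternatives. The macrophage, neutrophil and nonclassical markers given above moved between the same Gr1hi arrays as Nr1h3 and Abca1.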

How the data were processed

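The values were those of the series' deposited table, which hold expression of 45101 probe sets on 8 arrays; per the submitters' processing notes the authors used RMA, and the range of the deposited values is that of a log2 scale. The design text names the R packages oligo and limma, with no version given. RMA is known to compress low levels, so folds of dim genes may be understated. The number of arrays, 2 a group, limits the precision.

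The platform annotation gave 1 gene symbol for 34945 probe sets, several for 932 and none for 9160, with 64 controls; only those with 1 symbol were used, and 34741 matched a RefSeq gene by Entrez number. Each of 18193 genes was read from its brightest probe set on average over the 8 arrays. Background was set at 6.98, the 95th percentile of the means of 114 genes for keratin-associated proteins and for taste, olfactory and vomeronasal receptors, and 8788 genes (48.3%) were above it. A gene below that level on every array of 1 group has only a bound there, given as "at least". That bound sets the mean of the brighter group against the background level or, on an array where it is higher, the gene's own value.

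Group means were fitted over all 8 arrays with limma 3.58.1 in R 4.3.3 (lmFit, eBayes), p-values were adjusted by Benjamini-Hochberg over all genes, with calls made below 0.05. Contrasts were Gr1lo minus Gr1hi with beads, without beads and averaged, and beads minus no beads in each subset, averaged, and their difference. The fit was tested on simulated data with known changes. Alternatives were the mean of all probe sets, every probe set, genes above background only, the compared arrays alone, trend and robust moderation, array weights, median centring, cyclic loess, a replicate block and leaving out each array. In the fit of every probe set, whether the call of a named gene held was read from its brightest probe set alone. The members and lists were chosen with earlier results of these data known. Every array's value was given for genes called in any contrast, for Srebf1, Srebf2, Insig1 and Insig2, and for the 2 genes of each branch with the smallest p in a comparison; others are given by counts and ranges, other pathway genes by name where called. Promoters were read from RefSeq windows. Some listed pathway and marker genes were not analysed here.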

Additional observations from a re-analysis of the deposited data

How the results depend on the processing

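Of 61 calls of the 35 genes in the subset comparisons, 45 held in every one of 17 alternatives that tested them and 1 turned direction: Fads2, below background throughout, which had 0.0044 with the mean of all probe sets. The number of genes called ranged from 14 to 20 with beads, from 15 to 21 without beads and from 20 to 23 in the average when 1 array was left out, and over every probe set 35, 37 and 39 of 83 were called. For beads, the count of 0 became 1 in Gr1lo cells with trend and robust moderation and 0 to 3 when 1 array was left out. In the average over subsets it became 2 with genes above background only, 3 with trend and robust moderation, 1 with the replicate block (Idi1, -0.54) and 0 to 3 when 1 array was left out. The count of 3 came without replicate 2 of bead-free Gr1lo cells in both comparisons. The cause was not tested.

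The median difference of sterol enzymes between subsets was 0.15 with beads and 0.24 without beads with the mean of all probe sets, 0.48 without beads with median centring, and 0.26 to 0.41 with beads and 0.28 to 0.48 without beads when 1 array was left out. That of fatty acid enzymes was 0.17 with beads with the mean of all probe sets, and -0.0195 to 0.29 without beads when 1 array was left out. For beads, the sterol median in Gr1lo cells was -0.17 with the mean of all probe sets and -0.39 to -0.21 when 1 array was left out, and the fatty acid median in Gr1hi cells was -0.17 to -0.0135. Srebf1 in Gr1lo cells had a difference of 0.02 that turned to -0.002 without replicate 2 of bead-free Gr1lo cells and was at most 0.049 with 1 array left out, and was never called. The causes were not tested.

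Over all genes, the calls for beads were 12 in Gr1lo cells with the compared arrays alone and 127 with trend and robust moderation, against 41; in Gr1hi cells they were 121 with trend and robust moderation and 104 with array weights, against 45. When 1 array was left out they ranged from 17 to 354 in Gr1lo cells and from 0 to 58 in Gr1hi cells. In the average they were 326 with trend and robust moderation and 222 with genes above background only, against 139, and 29 to 428 when 1 array was left out, and for the difference of bead effects 17 with trend and robust moderation, against 8, and 1 to 167 when 1 array was left out. The replicate block gave 22 calls of the 35 genes without beads, 20 with beads and 23 in the average, against 21, 18 and 22. The labels give only a number, and the differences of replicate 1 and replicate 2 correlated across genes at 0.36 between the Gr1hi groups, 0.27 between the Gr1lo groups and -0.02 to 0.09 across subsets. With 2 arrays a group and a residual of 4 degrees of freedom, many small differences can go undetected.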
